A study of Mus musculus with 22 samples.

Results

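The genes described here are the nuclear genes of oxidative phosphorylation, followed in bone marrow B cell precursors with and without ectopic LIN28B. They were chosen by symbol: every gene listed in the expression tables whose name starts with Nduf, Uqcr, Cox4 to Cox8 or Atp5, together with Sdha, Sdhb, Sdhc, Sdhd, Cyc1 and Cycs. The 9 rows with a pseudogene suffix were left out. This gave 99 genes of 41814 in all, of which 94 were listed in each of the 3 stages, and 89 had enough reads to be tested at each of the large stages and 91 in small Pre-B cells. Genes that failed this minimum were mostly tissue isoforms (Cox4i2, Cox7b2, Cox8c, Ndufa4l2) and processed pseudogenes (Ndufa11b, Ndufs6b).

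The cells were sorted from adult tet-LIN28B mice, which carry a doxycycline-inducible cDNA of human LIN28B at Col1a (1 allele) and the rtTA*m2 transactivator at Rosa26, and from littermate controls with the transactivator alone. Both genotypes received chow with 200 mg/kg doxycycline over 10 days, and mice were 10 to 16 weeks old and of both sexes. Rosa26 is active in most tissues, so the transgene was not restricted to B cells. Large Pro-B cells were CD93+ IgM- cKIT+, and large and small Pre-B cells were CD93+ IgM- cKIT- cells separated by forward scatter. Libraries from tet-LIN28B and control mice numbered 5 and 4 at the large Pro-B stage, 4 and 3 at the large Pre-B stage, and 3 each at the small Pre-B stage, and came from 15 mice. Within a stage each library had its own mouse, while 7 mice were used at both large stages.

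Depth was 13.9 to 23.3 M reads per library at the large Pro-B stage, 19.9 to 30.4 M at the large Pre-B stage and 32.0 to 51.0 M at the small Pre-B stage, totals that cover counting error only. Lin28b reads were higher in every tet-LIN28B library, at 57.0 to 232 normalized counts against 4.63 to 10.2 in control large Pro-B cells, 41.9 to 175 against 9.92 to 28.8 in control large Pre-B cells, and 81.9 to 230 against 0 in all 3 control small Pre-B libraries. Because the transgene is human, its reads enter these counts only where they were assigned to mouse Lin28b. A normalized count is a read count divided by the size factor of its library, set separately for each stage, so values are compared within a stage. In small Pre-B cells, B lineage genes took 1.312 to 1.366% of the normalized counts in tet-LIN28B and 1.281 to 1.299% in control libraries (of 12 tested Cd79b was higher, and Ebf1, Rag2 and Il7r were lower), and markers of T cells and megakaryocytes took at most 0.000131% and 5.69e-05%. Erythroid markers took 0.000410 to 0.000493% in tet-LIN28B and 0.000143 to 0.000290% in control libraries (2 of 4 tested, Hba.a2 and Hbb.bs, were higher in tet-LIN28B), myeloid markers 0.00407 to 0.00417% in tet-LIN28B and 0.00471 to 0.00855% in control libraries (of 4 tested limma called none, with S100a8 at an unadjusted p under 0.05, and edgeR and DESeq2 called S100a8 higher), and NK and plasmacytoid dendritic cell markers 0.00191 to 0.00300% in tet-LIN28B and 0.00165 to 0.00182% in control libraries (Bst2, the 1 tested, was higher). Of 5 stage markers, limma called Ms4a1 higher by 1.53 and Il2ra lower by 1.13 on the log2 scale. Estimates of the 5 ran from -1.82 to 1.53, and 4 had an unadjusted p under 0.05 in limma. DESeq2 called 2 of them higher and 1 lower. The part of these cells in the following values was not tested.

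Oxidative phosphorylation is carried out in the inner mitochondrial membrane. Complex I (NADH dehydrogenase) and complex II (succinate dehydrogenase) pass electrons to ubiquinone, complex III passes them on to cytochrome c, and complex IV (cytochrome c oxidase) reduces oxygen. Complexes I, III and IV pump protons, and complex V, the ATP synthase, uses the resulting gradient to make ATP. Most subunits are encoded in the nucleus and a few in mitochondrial DNA, so the assembly of complexes I, III, IV and V draws on both genomes. In B cell development, large precursors divide and small Pre-B cells rest while they rearrange the light chain.

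LIN28B is known for blocking the maturation of let-7 microRNAs and for binding mRNAs directly. Sequences bearing on let-7, and on promoter elements known from genes of respiration, are shown first. The mature let-7a of the mouse is given with its seed, bases 2 to 8, in capitals, and the same seed is carried by the other family members in RefSeq (GRCm38.p6) except let-7j, whose seed is GAGGUAU. The reverse complement of the seed, CTACCTC, was searched on the sense strand of annotated 3′ untranslated regions. It was present in 2 of 90 tested members with such a region (2.22%), against 11.05% of 11234 genes tested in small Pre-B cells. The median 3′ region of the members was also shorter, at 199 bases against 1156.5 bases over all genes. The 2 sites, in capitals, lie at chrX:106022195-106022201 in Cox7b and chr17:78946986-78946992 in Ndufaf7, both on the plus strand (GRCm38).
mmu-let-7a-5p: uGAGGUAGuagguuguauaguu
Cox7b: cttactgccctCTACCTCgtggttatatt
Ndufaf7: tctttgccttgCTACCTCatcagagactt

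Promoters, taken as 250 bases before to 50 bases after the RefSeq start, were found for 74 members, 73 of them tested in small Pre-B cells. Both strands were searched for letters bound by factors known to control respiratory genes. The NRF1 motif (GCGCA, any base, GCGC) was present in 18 of 73 member promoters (24.7%), against 11.1% of 9623 promoters of tested genes and 4.78% of all 27025 promoters. The ETS motif CCGGAAG, which the GABP factor binds, was present in 17 (23.3%, against 19.7% of tested genes and 9.12% of all), the YY1 motif AAGATGGC in 9 (12.3%, against 5.03% and 2.88%) and the E-box CACGTG, bound by MYC, in 5 (6.85%, against 10.4% and 7.24%). Of 24 members with a promoter that were higher in tet-LIN28B small Pre-B cells, 7 had the NRF1 letters, 8 the ETS letters, 1 the YY1 letters and 2 the E-box. Of 48 tested members that were not called, 11, 9, 8 and 3 had them. The promoters of 3 called members and of Sdha, which was not called and holds as many NRF1 matches as any shown, are printed with the matched letters in capitals. They are Ndufb7 (chr8:83566508-83566807, plus strand, an ETS match), Ndufa8 (chr2:36049289-36049588, minus strand, 1 NRF1 match), Ndufb4 (chr16:37654319-37654618, minus strand, 3 NRF1 matches) and Sdha (chr13:74350191-74350490, minus strand, 3 NRF1 matches), all GRCm38.p6.
Ndufb7: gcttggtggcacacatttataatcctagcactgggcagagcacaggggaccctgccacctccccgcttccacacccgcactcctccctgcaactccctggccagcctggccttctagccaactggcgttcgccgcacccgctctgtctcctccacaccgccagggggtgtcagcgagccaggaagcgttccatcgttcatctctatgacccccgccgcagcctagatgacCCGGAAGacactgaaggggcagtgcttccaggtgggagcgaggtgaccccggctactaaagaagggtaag
Ndufa8: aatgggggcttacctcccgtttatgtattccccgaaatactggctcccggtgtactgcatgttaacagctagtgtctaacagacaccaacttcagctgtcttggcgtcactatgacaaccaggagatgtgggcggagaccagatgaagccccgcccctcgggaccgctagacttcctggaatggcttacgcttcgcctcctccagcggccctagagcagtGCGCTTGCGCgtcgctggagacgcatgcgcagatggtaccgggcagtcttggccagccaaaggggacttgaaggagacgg
Ndufb4: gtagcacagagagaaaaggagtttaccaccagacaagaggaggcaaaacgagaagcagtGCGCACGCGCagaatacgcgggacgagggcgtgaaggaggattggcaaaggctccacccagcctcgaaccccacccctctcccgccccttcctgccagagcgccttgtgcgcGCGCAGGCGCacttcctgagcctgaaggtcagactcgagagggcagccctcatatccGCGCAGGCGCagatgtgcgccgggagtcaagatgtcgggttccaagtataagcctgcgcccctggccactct
Sdha: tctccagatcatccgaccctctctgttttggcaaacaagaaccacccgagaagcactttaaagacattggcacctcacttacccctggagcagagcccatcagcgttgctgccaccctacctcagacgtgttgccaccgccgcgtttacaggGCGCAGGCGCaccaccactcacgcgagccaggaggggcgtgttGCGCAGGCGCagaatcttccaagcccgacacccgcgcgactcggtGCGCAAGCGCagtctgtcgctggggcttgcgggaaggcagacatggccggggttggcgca

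In small Pre-B cells, 32 members were higher with LIN28B, by small amounts, and every complex held at least 1 of them, in complex II Sdhd alone. Of 91 members tested, 32 were higher (35.2%) and 1 was lower at an adjusted p under 0.05, against 7.34% of all 14664 genes tested that were higher and 7.03% that were lower (limma with Benjamini-Hochberg adjustment over all genes). The median log2 fold change was 0.21 over the members and -0.0024 over all genes. In 59 members every tet-LIN28B library lay above every control library (64.8%, against 17.7% of all genes) and in 1 every library lay below (against 16.2% of all genes). The estimate was positive in 85 members, negative in 6, and 58 had an unadjusted p under 0.05. Over all 14664 genes 7285 estimates were positive, and 4252 genes had an unadjusted p under 0.05. Fewer cells of a type and less RNA per cell cannot be told apart in these bulk libraries. Without control replicate 1, 5 members were higher and none was lower, and leaving out any other library gave 8 to 35 members higher, with the fewest when tet-LIN28B replicate 1 was omitted. Calls over all genes also fell, to 497 higher and 519 lower without control replicate 1, and to 567 and 673 without tet-LIN28B replicate 1. After each library was rescaled to the same total, 16 members were higher and 1 was lower, and over all genes 829 were higher and 1227 lower, in place of 1076 and 1031.

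**Figure D1:**
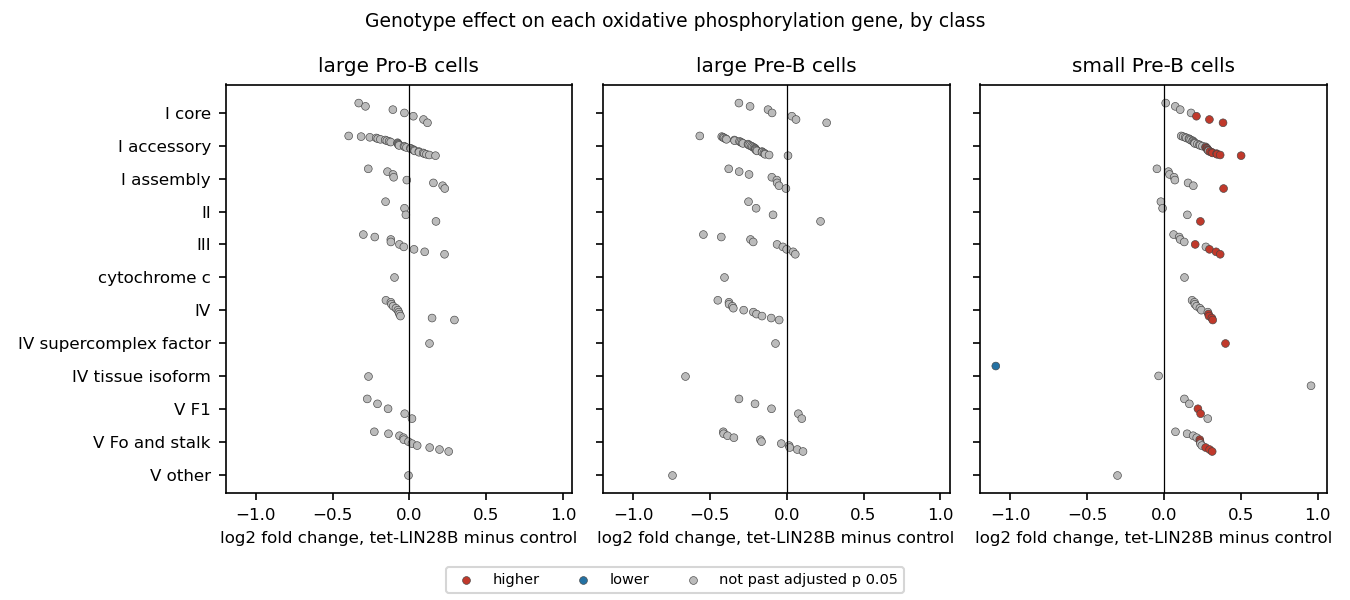
Log2 fold change, tet-LIN28B minus control, of every tested member at each of the 3 stages, by complex and class, with each point a gene and colour marking an adjusted p under 0.05. In small Pre-B cells 32 members lie to the right in red and Cox6b2 to the left in blue, whereas no member is coloured in the large stages.

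Complex I had the largest number of called members, 14 of 36 tested protein-coding subunits, and no subunit was lower. Its 7 nuclear core subunits, which hold the flavin and the iron-sulphur clusters or lie close to them, had a median log2 fold change of 0.18, and 3 were higher. Ndufs8, an iron-sulphur subunit at the junction with the membrane (chr19:3908863-3912774, minus strand, GRCm38 as for the other genes), had 9557, 8452 and 9469 normalized counts in tet-LIN28B small Pre-B cells, against 6706, 7223 and 7102 in controls. All tet-LIN28B libraries were above all controls, and the difference was 0.38 on the log2 scale (SE 0.07, adjusted p = 0.0057). Ndufv2, an iron-sulphur subunit of the NADH-binding module, had 3512, 3293 and 3382 normalized counts in tet-LIN28B small Pre-B cells, against 2620, 2928 and 2757 in controls, again without overlap (log2 fold change 0.30, adjusted p = 0.022). By contrast, Ndufs1, the largest core subunit and the carrier of several iron-sulphur clusters, had 4805, 5153 and 4941 normalized counts in tet-LIN28B small Pre-B cells, against 4996, 4815 and 4971 in controls. The groups overlapped, with a log2 fold change of 0.01 and a 95% interval of -0.13 to 0.15. Ndufv1, which binds NADH and the flavin, also overlapped between groups at 0.07 on the log2 scale (interval -0.07 to 0.22). The call in Ndufs8 was kept in all 19 alternative analyses.

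The 29 tested protein-coding accessory subunits, which surround the core and stabilize it, all had positive estimates, and 11 were higher (median log2 fold change 0.25). Ndufb4c, which the symbol rule takes in but the annotation calls a processed pseudogene, was at 0.19 and not called. Ndufb7, a subunit of the distal membrane arm that faces the intermembrane space (chr8:83566671-83571626, plus strand), had 5183, 4555 and 4856 normalized counts in tet-LIN28B small Pre-B cells, against 3207, 3472 and 3625 in controls. It had the highest estimate of any called member, at 0.50 on the log2 scale (SE 0.08, adjusted p = 0.0025), and stayed called in all 19 alternatives. Ndufa8, another intermembrane space subunit with paired cysteines, had 3958, 3519 and 3672 normalized counts in tet-LIN28B small Pre-B cells, against 2859, 3026 and 2882 in controls. The groups did not overlap, and Ndufa8 stayed called without each library in turn (log2 fold change 0.35, adjusted p = 0.011). The other 9 called accessory subunits were Ndufa2, Ndufa9, Ndufa11, Ndufa12, Ndufa13, Ndufb4, Ndufb9, Ndufb11 and Ndufc2, at 0.27 to 0.37 on the log2 scale (Ndufa11 0.30, adjusted p = 0.013). Ndufb8, Ndufb5 and Ndufb6 did not overlap between groups but had adjusted p values of 0.054, 0.058 and 0.052. Of 8 assembly factors, which act on the nascent complex and are not part of it, 1 was called. Ndufaf7, an arginine methyltransferase, had 912, 972 and 1019 normalized counts in tet-LIN28B small Pre-B cells, against 750, 671 and 800 in controls, a log2 fold change of 0.39 (adjusted p = 0.034). Its call was lost whichever single library was left out. The other 7 ranged from -0.05 (Ndufaf2) to 0.19 (Ndufaf1) on the log2 scale.

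**Figure D2:**
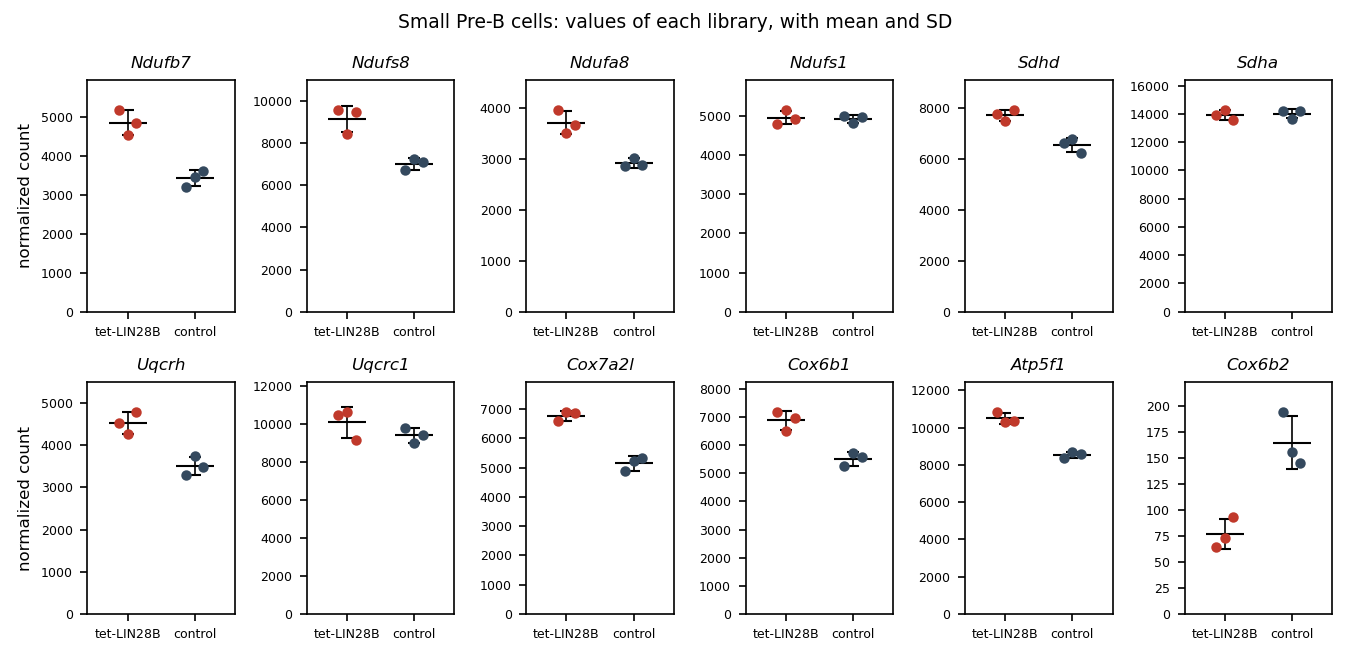
Normalized counts of 12 members in each small Pre-B library, tet-LIN28B on the left and control on the right of each panel, with lines at the mean and bars at the SD of 3 libraries. Ndufb7, Ndufs8, Ndufa8, Sdhd, Uqcrh, Cox7a2l, Cox6b1 and Atp5f1 have no overlap and are higher in tet-LIN28B, Ndufs1, Sdha and Uqcrc1 overlap, and Cox6b2 is lower in tet-LIN28B.

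Complex II, which has no mitochondrially encoded subunit, had 1 called gene of 4. Sdhd, one of its membrane anchors, had 7729, 7458 and 7895 normalized counts in tet-LIN28B small Pre-B cells, against 6595, 6767 and 6228 in controls. The groups were separate, at 0.24 on the log2 scale (SE 0.06, adjusted p = 0.030), although the call was kept in 8 of the 19 alternatives and in 1 of the 6 that left out a library. Sdha, the flavoprotein that oxidizes succinate, had 13905, 14253 and 13582 normalized counts in tet-LIN28B small Pre-B cells, against 14178, 13622 and 14204 in controls. Its groups overlapped, and the log2 fold change of -0.01 had an interval of -0.13 to 0.11. Sdhb, the iron-sulphur subunit, was separate between groups but not called (0.15, adjusted p = 0.12), and the other anchor Sdhc was at -0.02.

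In complex III, 4 of 9 subunits were higher, with a median log2 fold change of 0.20. Uqcrh, the hinge protein next to cytochrome c1, had 4520, 4258 and 4775 normalized counts in tet-LIN28B small Pre-B cells, against 3297, 3735 and 3488 in controls. The groups did not overlap (log2 fold change 0.37, SE 0.07, adjusted p = 0.011), but without control replicate 1 the adjusted p was 0.051. The small subunits Uqcrb and Uqcrq and the core protein Uqcrc2 were higher by 0.34, 0.30 and 0.20 on the log2 scale (adjusted p = 0.022, 0.038 and 0.045). The subunits that carry the redox centres were not called: Cyc1, which holds the c1 haem, was at 0.11 (adjusted p = 0.26) and Uqcrfs1, the Rieske iron-sulphur protein, at 0.13 (adjusted p = 0.22). Uqcrc1, the other core protein, had 10497, 10622 and 9163 normalized counts in tet-LIN28B small Pre-B cells, against 9778, 9005 and 9448 in controls, with overlapping groups. Cycs, the soluble cytochrome c of somatic cells, was at 0.13 on the log2 scale and overlapped between groups.

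Complex IV had 4 higher members among 11 of its general subunits, with a median log2 fold change of 0.24 and no negative estimate. Cox6b1, which lies on the intermembrane side near the cytochrome c site, had 7166, 6514 and 6964 normalized counts in tet-LIN28B small Pre-B cells, against 5245, 5727 and 5595 in controls. All tet-LIN28B libraries were above the controls, at 0.32 on the log2 scale (SE 0.07, adjusted p = 0.012). Cox4i1, the subunit at which ATP inhibits the enzyme, Cox5b and Cox6a1 were higher by 0.29, 0.29 and 0.31 on the log2 scale. Cox5a, an early partner of Cox4i1, also had separate groups at 0.29 but narrowly missed the threshold (adjusted p = 0.0502). Cox7a2l, which links complexes III and IV in supercomplexes (chr17:83501918-83517330, minus strand), had 6575, 6880 and 6857 normalized counts in tet-LIN28B small Pre-B cells, against 4866, 5216 and 5341 in controls. Its groups were far apart relative to their spread, at 0.40 on the log2 scale (SE 0.06, adjusted p = 0.0033), and its call was kept in all 19 alternatives.

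Of 3 tested isoforms of complex IV known from muscle, heart or testis, 1 was lower and the others were not called. Cox6b2, the testis counterpart of Cox6b1 (chr7:4751792-4753094, minus strand), had 64.8, 72.6 and 93.2 normalized counts in tet-LIN28B small Pre-B cells, against 194, 156 and 145 in controls. It was the only member that fell, by 1.09 on the log2 scale (SE 0.23, adjusted p = 0.012), and without control replicate 1 the adjusted p was 0.062. The muscle form Cox6a2 had 513, 485 and 563 normalized counts in tet-LIN28B small Pre-B cells, against 476, 484 and 655 in controls, with overlapping groups and a log2 fold change of -0.03. Cox7a1, a heart and muscle form, had 30.3, 16.6 and 37.1 normalized counts in tet-LIN28B small Pre-B cells, against 16.8, 7.6 and 17.8 in controls, which is close to the minimum for testing and overlapped (adjusted p = 0.24). Per kilobase of median transcript length, Cox6b2 reached 177 normalized counts in tet-LIN28B and 378 in control cells, far under Cox6b1 at 14159 and 11363.

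ATP synthase had 7 called members of 16 subunits, and every subunit had a positive estimate (median log2 fold change 0.23). In the catalytic F1 head, Atp5b, the beta subunit that carries the catalytic sites, had 44719, 41560 and 44802 normalized counts in tet-LIN28B small Pre-B cells, against 35947, 38468 and 38038 in controls. The groups were separate, at 0.22 on the log2 scale (SE 0.06, adjusted p = 0.035). The gamma subunit Atp5c1, which turns within the head, was higher by 0.24 (adjusted p = 0.045), and the alpha subunit Atp5a1 was separate at 0.13 but not called (adjusted p = 0.14). In the membrane part and stalk, Atp5f1, the b subunit of the peripheral stalk (chr3:105942700-105960100, minus strand), had 10817, 10325 and 10339 normalized counts in tet-LIN28B small Pre-B cells, against 8352, 8706 and 8567 in controls. No library overlapped, the log2 fold change was 0.30 (SE 0.06, adjusted p = 0.0080), and the call was kept in all 19 alternatives. The stalk subunits Atp5h and Atp5o and the membrane subunit Atp5l were higher by 0.23, 0.23 and 0.27. Of the 3 genes that encode the same c subunit of the proton-driven ring, Atp5g1 was higher by 0.31 (adjusted p = 0.044), whereas Atp5g3 was at 0.21 (adjusted p = 0.10) and Atp5g2 at 0.07 (adjusted p = 0.82). Per kilobase of median transcript length Atp5g3 was the most abundant of these, at 8205 normalized counts in tet-LIN28B and 7083 in control cells. Atp5g1 was at 1044 and 841, and Atp5g2 at 1026 and 992. These values depend on the annotated lengths, which were 2675.5 bases for Atp5g1, 586 for Atp5g2 and 718.5 for Atp5g3. Without division by length, Atp5g1 took on average 78.6 ppm of tet-LIN28B and 64.9 ppm of control small Pre-B libraries. Atp5g2 then took 16.9 and 16.8 ppm, and Atp5g3 166 and 147 ppm. Atp5s, a coupling factor outside the core enzyme, had 302, 492 and 352 normalized counts in tet-LIN28B small Pre-B cells, against 436, 429 and 527 in controls, an uncalled log2 fold change of -0.31.

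**Figure D3:**
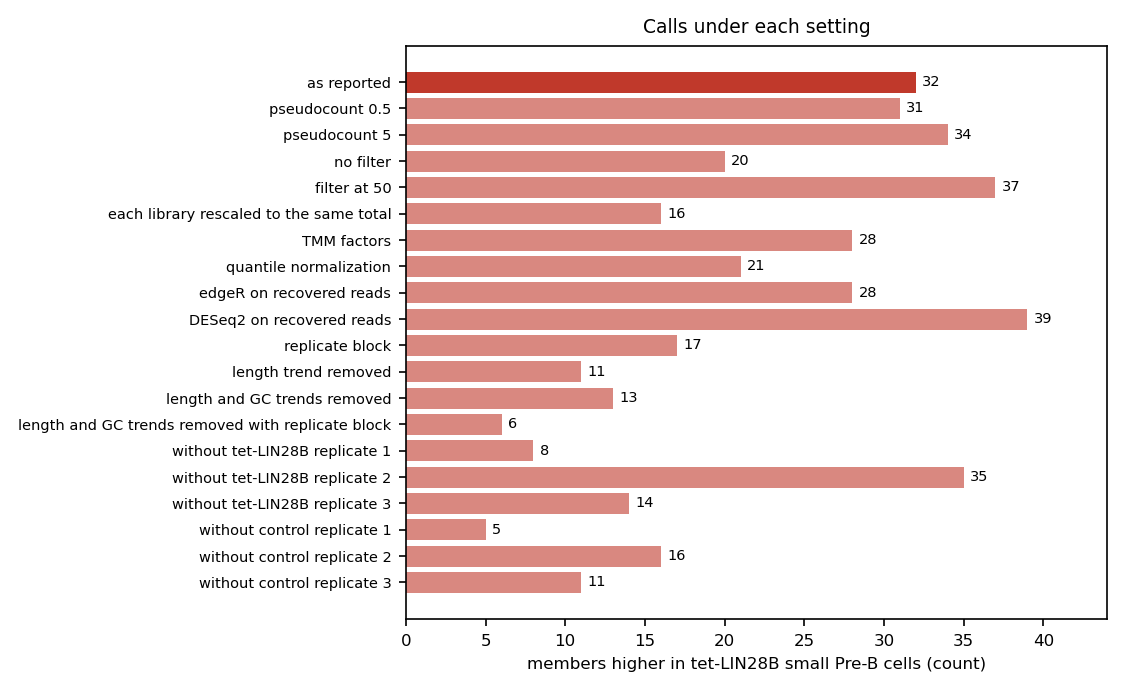
Number of members higher in tet-LIN28B small Pre-B cells at an adjusted p under 0.05 as reported and under each of 19 alternatives. The count is 32 as reported and ranges between 5 without control replicate 1 and 39 with DESeq2. Over all genes the counts higher in these settings are 1076, 497 and 1357.

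All 32 members called higher kept a positive sign in each of the 19 alternatives, and 81 of the 91 tested members kept their sign. Calls were less stable than signs. Ndufb7, Ndufs8, Cox7a2l and Atp5f1 were called throughout, and with Ndufa8 they were the 5 members that stayed called without each library in turn. In contrast, Uqcrc2 and Atp5h were called in 4 of the alternatives each.

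Some member transcripts have been found bound to LIN28B by immunoprecipitation from cultured B cell precursors. Of the 13 members on that list of 238 transcripts, 5 were higher in small Pre-B cells (Ndufv2, Uqcrb, Uqcrh, Cox7a2l and Atp5h) with a median log2 fold change of 0.20. The others were not called: Ndufb8, Ndufb10 and Ndufa5, accessory subunits of complex I, were each at 0.20 with separate groups (adjusted p = 0.054, 0.075 and 0.21), Cox6c of complex IV was at 0.23 (adjusted p = 0.098), Ndufb3 and the ATP synthase subunit Atp5mpl were at 0.14 and 0.15, Ndufaf8, an assembly factor of complex I, was at 0.03, and Sdha was at -0.01. Among the 78 tested members outside the list 27 were higher and 1 was lower, with a median of 0.22. Only transcripts above an expression minimum in the study's tet-LIN28B input and immunoprecipitated samples could enter the list, and its control sample was not considered. Members outside the list are therefore not shown to be unbound. Of the 2 members with a let-7 seed match, Ndufaf7 was higher and Cox7b was not called (0.24, adjusted p = 0.093).

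Transcripts of the members are short, and short transcripts of other genes also had a positive median difference in small Pre-B cells. The median transcript length was 747.5 bases for tested members and 2330 bases for other genes. Among members, the median log2 fold change was 0.23 for 46 genes of up to 750 bases, 0.24 for 25 genes of over 750 and up to 1500 bases and 0.14 for 20 longer genes. In the same length classes other genes had medians of 0.14, 0.08 and -0.04, and 8.17%, 10.7% and 6.10% of them were higher. Of the members in these classes 30.4%, 48% and 30% were higher. In an alternative, the trend with length of each library's deviation from the gene means was removed over all genes. With this adjustment 11 of 91 members were higher, 1 was lower, and the members' median was 0.14. Over all 14664 genes 991 were then higher and 888 lower. The share of short transcripts of other genes in the library was 5.243 to 6.002% in tet-LIN28B and 4.90 to 5.32% in control small Pre-B cells. Its part in the result was not tested beyond this adjustment.

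In large Pre-B cells no member was called in either direction, and neither was Lin28b. Of 89 tested members 76 had negative and 13 positive estimates, with a median log2 fold change of -0.21 against -0.02 over all genes. In limma none had an unadjusted p under 0.05, which 930 of 14155 genes did, and edgeR and DESeq2 also called 0 members. Over all genes 0.0424% were called higher and 0.0141% lower. In 3 members every tet-LIN28B library was below every control library (over all genes 2.87%), and in none above (over all genes 3.59%). Ndufaf3, a complex I assembly factor, had 456, 553, 585 and 537 normalized counts in tet-LIN28B large Pre-B cells, against 703, 672 and 694 in controls. These did not overlap, at -0.38 on the log2 scale (SE 0.21, adjusted p = 0.75), and Sdhb and Uqcrfs1 were the others without overlap. The smallest unadjusted p values belonged to Atp5s (log2 fold change -0.75), Ndufaf3, Atp5h (-0.38) and the small subunits Ndufa6 (-0.57) and Uqcrq (-0.54), all with adjusted p values of 0.75 to 0.77. Over all 32 members that the naming rule took at this stage, estimates ran between -0.75 and 0.26 (Ndufs1). Ndufb7, by contrast, had 440, 771, 856 and 526 normalized counts in tet-LIN28B large Pre-B cells, against 438, 755 and 1031 in controls, values that overlapped fully (log2 fold change -0.16). By complex the medians were -0.21 for complex I, -0.14 for II, -0.06 for III, -0.28 for IV and -0.16 for V. These include assembly factors, tissue isoforms and other associated members. Over subunits alone the medians were -0.22 for complex I and -0.13 for V.

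The negative median of large Pre-B cells varied with single libraries. The third tet-LIN28B library stood above its group by a median of 0.58 on the log2 scale over the members and 0.47 over other genes of up to 750 bases. Without it the members' median was -0.43 and 12 members had an unadjusted p under 0.05, none of them called after adjustment. Without the first tet-LIN28B library the median was -0.07. With equal library totals it was -0.31, a setting that moved the median of all genes to -0.12, and with the length trend removed it was -0.04.

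In large Pro-B cells no member was called, and over all genes 0% were called higher and 0% lower. The members' median log2 fold change was -0.06, with 58 negative and 31 positive estimates. In limma 0 members had an unadjusted p under 0.05 (394 of 13776 genes did), and edgeR and DESeq2 called 0 members. The smallest unadjusted p values belonged to Ndufa9 (log2 fold change -0.31), Ndufv3 (-0.40), Ndufv1 (-0.33), the F1 subunit Atp5d (-0.27) and Atp5g3 (0.26), each with an adjusted p of 0.999, and the 31 members taken by the naming rule lay between -0.40 and 0.26. In no member were the groups separate, a pattern that 0.697% of genes showed above and 0.602% below the controls. Ndufb7 had 725, 1079, 1294, 1521 and 788 normalized counts in tet-LIN28B large Pro-B cells, against 690, 883, 1196 and 1350 in controls, and Cox7a2l had 1560, 1479, 1511, 4775 and 1584 normalized counts in tet-LIN28B large Pro-B cells, against 1650, 1597, 1744 and 2093 in controls. The groups overlapped for Ndufb7, and for Cox7a2l the fourth tet-LIN28B library was alone above all others. Library medians over the members spanned -0.47 to 0.55 around the tet-LIN28B mean and -0.47 to 0.41 around the control mean, whereas small Pre-B libraries stayed within -0.08 to 0.06 and -0.05 to 0.05. Leaving out 1 library moved the median to between -0.20 (without tet-LIN28B replicate 4) and 0.10 (without control replicate 4).

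**Figure D4:**
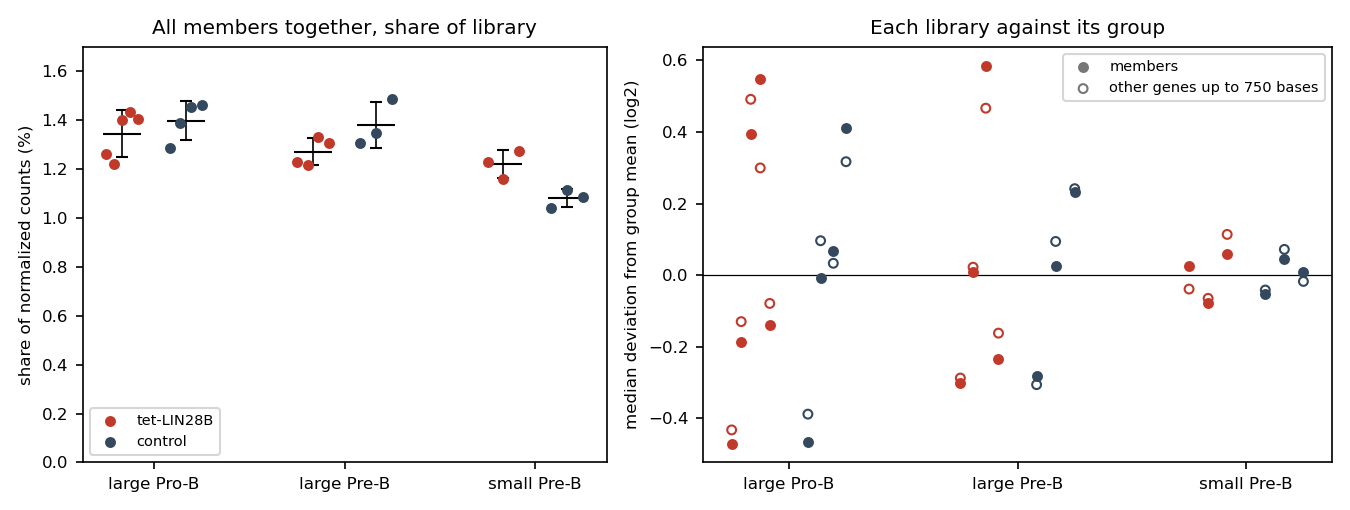
Left, share of each library's normalized counts taken by all members together (%), with mean and SD, in tet-LIN28B and control cells of each stage. Right, median log2 deviation of each library from its group mean over the members (filled) and over other genes of up to 750 bases (open). The 3 tet-LIN28B small Pre-B libraries, at 1.16 to 1.27%, lie above the controls at 1.04 to 1.11%, and filled and open points shift together in the large stages.

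Together the members took 1.22 ± 0.06% of the normalized counts in tet-LIN28B small Pre-B cells and 1.08 ± 0.04% in controls (SD, n = 3 each). The 2 groups of libraries did not overlap, at 1.16 to 1.27% and 1.04 to 1.11%. Complex V held the largest part, 0.396 to 0.433% against 0.355 to 0.384%, followed by complex I with 0.357 to 0.394% against 0.318 to 0.338%. Complex IV took 0.181 to 0.210% against 0.157 to 0.176%, complex III 0.128 to 0.134% against 0.116 to 0.121%, and complex II 0.0918 to 0.0939% against 0.0895 to 0.0897%. In large Pre-B cells the share was 1.27 ± 0.06% in tet-LIN28B (n = 4) and 1.38 ± 0.10% in control cells (n = 3), and in large Pro-B cells 1.34 ± 0.10% (n = 5) and 1.40 ± 0.08% (n = 4). Both pairs overlapped.

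Whether the effect of LIN28B differed between stages was tested for 88 members within 11830 genes. The effect in small Pre-B cells minus that in large Pre-B cells was positive in 86 members (median 0.49 on the log2 scale, -0.04 over all genes), but no member passed the adjusted threshold, against 0.0169% of all genes in the higher and 0% in the lower direction. Unadjusted p values under 0.05 were found for 2 members, Ndufb9 (0.69, SE 0.30) and Ndufa8 (0.65, SE 0.31), and for 286 genes. Small Pre-B minus large Pro-B was positive in 79 members (median 0.27), again with none called (0.0254% and 0.00845% of all genes higher and lower), and 1 member, Ndufa9, and 567 genes had an unadjusted p under 0.05. Large Pre-B minus large Pro-B had a median of -0.23 and 19 positive members, with no call among members and 0% in either direction among all genes, where 0 members and 521 genes had an unadjusted p under 0.05. These 3 differences share libraries, and a call in small Pre-B cells alone is therefore not a shown difference between stages. The test used limma with the mouse as a block, and other tools were not run on it.

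Levels of the members also differed between the stages in control cells, in an order that followed transcript length. The ratio of the share of the library in small Pre-B to that in large Pre-B controls had a median of 3.30 for 43 members of up to 750 bases, 1.06 for 25 members of over 750 and up to 1500 bases and 0.580 for 20 longer members. Atp5k, the small e subunit of ATP synthase with a median transcript of 321.5 bases, was 20.2-fold higher in small Pre-B controls, and Ndufa3 and Cox7c were 15.8-fold and 13.8-fold higher. Atp5b, Sdha and Ndufs1 were at 0.369, 0.4655 and 0.527 of their large Pre-B share. Spearman's correlation of the log2 ratio with length was -0.73 over the 88 members, a description across genes that share the same libraries. Because the members of 1 enzyme moved in opposite directions by length, no biological difference between stages is read from these levels, and the part of library preparation was not tested.

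**Figure D5:**
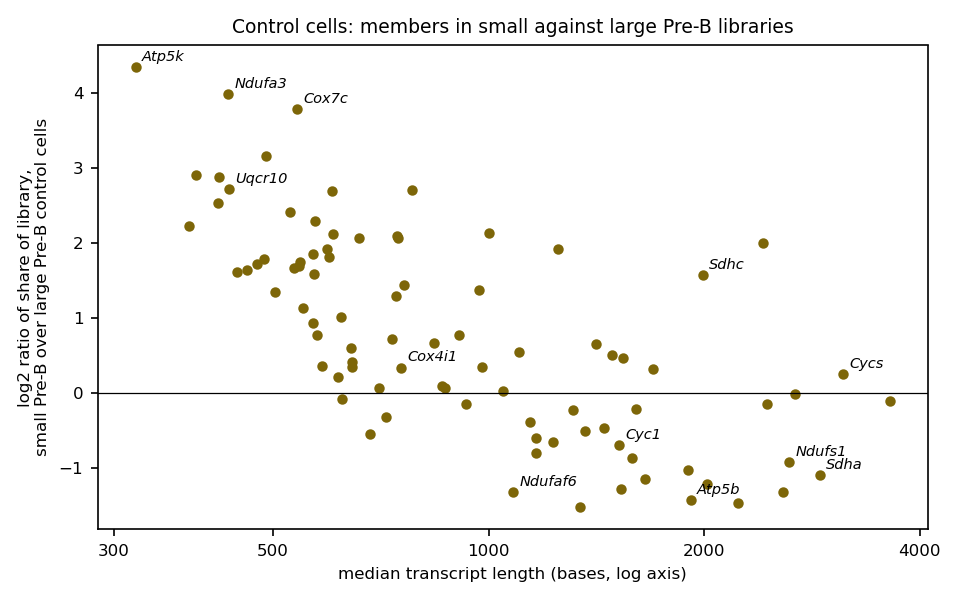
Median transcript length (bases, log axis) against the log2 ratio of a member's share of the library in small over large Pre-B control cells, each point 1 of 88 members. Short members such as Atp5k and Ndufa3 lie high and long members such as Atp5b and Sdha lie below 0 (Spearman's correlation -0.73).

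Genes that act beside the nuclear subunits were compared in the same way in small Pre-B cells, where 7.34% of all genes were higher and 7.03% lower. Of the 13 subunits encoded in mitochondrial DNA none was called by limma, with 3 at an unadjusted p under 0.05, or by edgeR, and DESeq2 called 1 higher (mt-Nd6, adjusted p = 0.0498). Of the 13, 12 had positive estimates with a median log2 fold change of 0.17. Positive estimates were not particular to this stage: all 11 tested in large Pro-B cells were positive (median 0.74, none called). These 11 share their libraries, and the high values lay in tet-LIN28B replicates 3 and 5. There all mitochondrially encoded genes took 0.612 and 0.617% of normalized counts. The other tet-LIN28B large Pro-B libraries took 0.126 to 0.211%, within the control range of 0.101 to 0.215%. In large Pre-B cells 9 of 12 were positive (median 0.04, none called). Poly-A libraries record mitochondrial transcripts through short tails, and whether the mt-Nd6 reads were captured in this way was not tested. Among 37 assembly factors outside the symbol rule 3 were higher (8.11%, close to the share over all genes) and none lower: Cox16 (0.41) and Coa7 (0.45), which act on complex IV, and Uqcc3 (0.34), which acts on complex III. Of 7 carriers and channels of the mitochondrial membranes 2 were higher, the ADP/ATP carriers Slc25a4 (0.25) and Slc25a5 (0.30). Slc25a5 had 24905, 23186 and 22310 normalized counts in tet-LIN28B cells, against 18746, 19255 and 19304 in controls, without overlap.

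In the citric acid cycle, which supplies the electrons, 2 of 17 genes were higher (11.8%) and 1 was lower (5.88%), shares set by so few genes that nothing is read from them against all genes. Suclg1, the shared subunit of succinyl-CoA ligase, was higher by 0.23 and fumarase, Fh1, by 0.33. Suclg2, the subunit that makes the ligase specific for GDP, fell by 0.65 on the log2 scale. Of 13 genes of ubiquinone synthesis none was higher and 1 was lower (7.69%, close to the share over all genes), the hydroxylase Coq7, with 4021, 3758 and 4156 normalized counts in tet-LIN28B cells against 6732, 6895 and 6231 in controls. Of 15 regulators of mitochondrial genes Myc was called, at 315, 441 and 469 normalized counts in tet-LIN28B cells against 37.2, 76.8 and 39.5 in controls (log2 fold change 3.03, adjusted p = 0.00023). The regulators whose motifs were searched in the promoters, Nrf1, Gabpa and Yy1, were at -0.03, 0.06 and 0.13 on the log2 scale, and Tfam, the packaging and transcription factor of mitochondrial DNA, was at 0.17, none called. Among 10 proliferation genes, Mki67, Ccnb1 and Ccna2 were higher by 0.48, 0.63 and 0.77, and the list took 0.0339 to 0.0436% of tet-LIN28B and 0.0305 to 0.0361% of control libraries. The part of cycling cells in the members' values was not tested. In the large stages limma, edgeR and DESeq2 called 0 genes of these pathway and proliferation lists, and limma gave an unadjusted p under 0.05 to 1 assembly factor in large Pro-B and 1 mitochondrially encoded subunit in large Pre-B cells.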

How the data were processed

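Libraries of poly-A RNA were made by the study with SMART-Seq v4 and Nextera XT kits, which do not keep strand, and were run on 2 instruments, with no record of which library ran on which in the sources used here. The submitters' processing notes name STAR 2.7.1 as aligner with mm10, RSEM 1.28 for quantification and DESeq2 for normalization, and no annotation. The deposited signal is a normalized count, which the authors obtained by dividing counts by size factors, separately for each stage. Whole reads were recovered for at least 99.996% of values within 0.1 read and gave the library totals. Columns with the authors' own comparisons (base means, log2 fold changes, errors, test scores and p-values) were not used.

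Genotypes were compared within a stage with limma 3.58.1 in R 4.3.3 on log2(normalized count + 1) with a mean-variance trend. Genes needed 10 normalized counts in as many libraries as the smaller group had, and the pseudocount understates changes of low genes. A call required an adjusted p (Benjamini-Hochberg, all genes tested) under 0.05. Stage differences came from 1 limma model of all libraries with the mouse as a block (estimated correlation 0.278). Alternatives were pseudocounts of 0.5 and 5, no filter, a filter at 50, equal totals, TMM, quantile normalization, edgeR 4.0.16, DESeq2 1.42.0, a replicate block, removal of length and GC trends (chosen after seeing the data) and leaving out each library.

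The members, lists, tests and alternatives were chosen with earlier results of these data known. The rule for naming takes up to 3 called members per class with the smallest adjusted p, any called lower member, the 5 smallest unadjusted p values where fewer were called, a panel of catalytic and redox subunits, the members on the study's list of bound transcripts, and isoforms. Other members named were chosen after their values were seen. In the large stages those with the 5 smallest p values are given and the rest as a range, and 1 member that the rule takes in small Pre-B cells is not reported here. Gene coordinates and transcript lengths are from GENCODE for GRCm38. Genes that overlap or have near-identical copies may have exchanged reads, and the 4 members annotated as processed pseudogenes are uncertain for this reason. Scripts were tested on simulated data with known changes.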

Additional observations from a re-analysis of the deposited data

Results flagged for a closer look

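In 15 of 97 groups of values from 1 genotype and stage, 1 library lay far from the rest by Dixon's test, where chance gives about 1 in 20. Most groups are genes measured in the same libraries, so they are not independent trials to set against that rate. Groups of 3 libraries were not tested, so small Pre-B cells and large Pre-B controls are not covered.

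In large Pro-B cells, tet-LIN28B replicate 4 lay past the limit of this test, above its group, for 6 named members. Cox7a2l had 4775 normalized counts there, against 1479 to 1584 in the other tet-LIN28B libraries, and Sdhb had 11864, against 4297 to 5449. Ndufb8 had 3444 (others 1387 to 1674), Ndufv2 4289 (1101 to 1947), Uqcrfs1 4664 (2041 to 2577) and Ndufb10 1376 (740 to 922). Over all members this library lay 0.55 above its group on the log2 scale, and other genes of up to 750 bases lay 0.30 above. In the same group replicate 3 lay past it for Uqcrb, at 1410 normalized counts against 335 to 606 in the others. Among controls, replicate 1 lay past it, below its group, for Ndufa9, at 6409 against 7524 to 7658.

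In large Pre-B cells, tet-LIN28B replicate 3 lay past the limit, above its group, for 7 named members. Ndufb3 had 438 normalized counts there, against 205 to 210 in the other tet-LIN28B libraries, and Atp5mpl had 270.2, against 54.0 to 81.8. Uqcrb had 852 (others 197 to 278), Ndufa5 180.4 (45.8 to 66.2), Cox5a 1523 (760.3 to 859), Atp5g3 3511 (2516 to 2674) and Cox6c 799 (318 to 399.9). This library lay 0.58 above its group over all members and 0.47 above over other genes of up to 750 bases.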

How the results depend on the processing

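In small Pre-B cells the members' median stayed positive in all 19 alternatives, and no named member that was called changed sign. The count of members higher was 32 as reported, 31 and 34 with pseudocounts of 0.5 and 5, 37 with a filter at 50, 28 with TMM or edgeR and 39 with DESeq2. It was 20 with no filter, 16 with equal totals and 21 with quantile normalization. With the length trend removed it was 11 and the median log2 fold change 0.14, and with length and GC trends removed 13 and 0.14, both chosen after seeing the data. Over all genes 991 and 1009 were higher with these adjustments. Without 1 library at a time the count of members higher was 5 (without control replicate 1) to 35 (without tet-LIN28B replicate 2), and the count of members lower was 0 to 1. Over all genes 497 were higher without control replicate 1 and 964 without tet-LIN28B replicate 2. Cox6b2, the only member called lower as reported, is a tissue isoform. Leaving out tissue isoforms, assembly factors and other non-subunits therefore brought the count of members lower to 0 by construction. Of 835 values of 44 named members in small Pre-B cells 677 kept their side of the threshold, 151 fell short of it and 7 passed it. The 681 and 638 values of large Pro-B and large Pre-B cells all stayed under it.

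Whether replicate numbers pair the samples is not known, because the labels give no litter or batch for them. Libraries were not treated as pairs in the reported test. With so few libraries the following correlations cannot decide it. Deviations of libraries with the same number correlated at 0.43, 0.14, -0.19 and 0.27 for Pro-B libraries, at 0.16, 0.14 and -0.06 for those of large Pre-B cells, and at 0.02, -0.11 and -0.0043 for those of small Pre-B cells, and libraries did not always correlate best with their own number. With the replicate block 17 members were higher and 1 lower in small Pre-B cells, and with length and GC trends removed too 6 of 91 were higher (median 0.14). Over all 14664 genes 851 were higher with the block and 831 with the trends removed too. The block gave no call among members in the large stages.

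Large-stage libraries differ from one another by more than small Pre-B libraries do. Of the 32 members called higher in small Pre-B cells, 5 stayed called without each library in turn.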
